A study of Mus musculus with 8 samples.

Results

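The genes described here mark radial glia, the neural stem cells of the developing cortex, and the astrocytes that descend from them. The list holds 37 genes, taken by symbol and not by a rule on measured values, though chosen with earlier results of these data known. All 37 were found by Ensembl identifier among the 48709 genes of the files, and all 37 were among the 16525 genes that passed edgeR's filter on low counts. RNA of the P3 mouse cortex (postnatal day 3), which the methods call dorsal telencephalon (dTel), was sequenced from 4 control and 4 dcKO_hGFAP-Cre samples on a C57BL/6J background. The dcKO_hGFAP-Cre mice carry floxed alleles in both copies of BAF155 and of BAF170, 2 scaffolding subunits of the BAF chromatin remodelling complex, together with hGFAP-Cre. The study's methods describe controls as heterozygous for both floxed alleles and Cre-positive, whereas the sample titles call them WT. In hGFAP-Cre mice the human GFAP promoter drives Cre in radial glia of the dTel. The deletion thus reaches the neurons and macroglia born from them once Cre is active. Cells born before that, or that enter the cortex from elsewhere, can keep both genes. Each sample is bulk tissue, and neither the sex of the mice nor any pooling is given in the sources used here.

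Radial glia line the ventricle, span the cortical wall with a long process and produce first neurons and then glia. Around birth, nuclear factor I proteins, Sox9 and signals through JAK-STAT and BMP receptors switch them to the production of astrocytes. Maturing astrocytes take up glutamate, buffer potassium and water at endfeet on blood vessels, are coupled by gap junctions and secrete matrix proteins and lipoproteins.

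The files hold raw counts, with totals between 21126713 and 32110285 per sample. Expression is given as normalized counts (CPM), scaled to a common library size after TMM normalization. The deleted genes were lower in every mutant: Smarcc1 (BAF155) lay between 144 and 170 CPM in control and between 73.6 and 86.9 CPM in dcKO_hGFAP-Cre samples, and Smarcc2 (BAF170) between 469 and 500 and between 256 and 319 CPM. Counts cover whole genes, so exons outside the deleted part and cells without Cre activity are included. Reads of the mitochondrial genome made up between 2.06% and 3.23% of the control and between 3.57% and 5.47% of the mutant counts. Xist, the RNA of the inactive X chromosome, was at 630 CPM in control replicate 4 and 1070 CPM in mutant replicate 3, and at or below 5.8 CPM in the other 6 samples. The Y-linked gene Ddx3y showed the opposite, with 0.208 and 0.751 CPM in these 2 samples and between 54.7 and 74.4 CPM elsewhere. Thus each group holds 1 sample with the expression pattern of a female and 3 with that of a male, and in the mutants that 1 sample is replicate 3, which also stands apart in the genes described here.

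Of the 37 genes, 3 were higher and 12 lower in dcKO_hGFAP-Cre cortex as compared with control, and 22 did not pass (quasi-likelihood F test of edgeR, Benjamini-Hochberg adjusted over all 16525 genes, threshold 0.05). The same test called 18.6% of all genes higher, 18.9% lower and 37.5% in either direction. Thus the share called in either direction, 15 of 37 or 40.5%, was near that of all genes, while 32.4% were called lower and 8.11% higher. The 3 higher genes were Hopx, Vim and Nfib. The 12 lower genes were the transcription factor Nfix, the filament gene Nes, the matrix genes Bcan, Ncan, Ptprz1 and Sparcl1, the calcium-binding S100b, the transporters Slc1a2, Slc7a10 and Slc4a4, the tight junction gene Cldn10, and Agt. All 4 mutants lay above all 4 controls in 3 genes and below them in 11, where these arrangements were found in 16.7% and 17.7% of all genes tested. The median log2 fold change of the 37 genes was -0.46, that of all genes 0.024. In bulk samples such as these, fewer cells of a type and less RNA per cell cannot be told apart.

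The mutants were not alike in these genes. Mutant replicate 1 lay below every control in 29 of the 37 genes, replicate 2 in 27 and replicate 4 in 30, whereas replicate 3 lay below every control in 12 and above every control in 17. Over all genes tested, the share below every control was similar in the 4 mutants, between 32.2% and 34.3%. Set against the control mean, the median gene of the list stood at 62.8%, 54.8%, 106% and 59.2% in mutant replicates 1 to 4. Replicate 3 was the highest of the 4 mutants in 29 of the 37 genes and the lowest in none, while it was the highest in 29% of all genes tested. The summed level of the 37 genes was between 7820 and 8190 CPM in controls and 5170, 5330, 7820 and 4990 CPM in mutant replicates 1 to 4. Abundant genes weigh most in this sum. In replicate 3 such genes went both ways, with Nfix at 39.9% and Fabp7 at 171% of the control mean.

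Each sample was left out in turn as an alternative, and only leaving out mutant replicate 3 moved the number of lower genes by more than 1.5 times. Without it, 24 of the 37 genes were lower and 3 higher, and all 15 genes called with every sample kept their call and direction. The same fit called 19.0% of all genes higher and 19.8% lower. In 24 of the 37 genes, mutant replicates 1, 2 and 4 all lay below every control, an arrangement found in 21.6% of all genes in these 7 samples. The median log2 fold change of the 37 genes was then -0.77, that of all genes 0.015. Values without mutant replicate 3 are given below beside those of all samples, and the choice to show this sample's part in detail was made after its values were seen. Replicate 3 was the highest mutant in 29 of these same 37 genes, so leaving it out favours lower calls among them. The shares of all genes are therefore not a like background, and p-values without replicate 3 describe the remaining samples only.

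**Figure D1:**
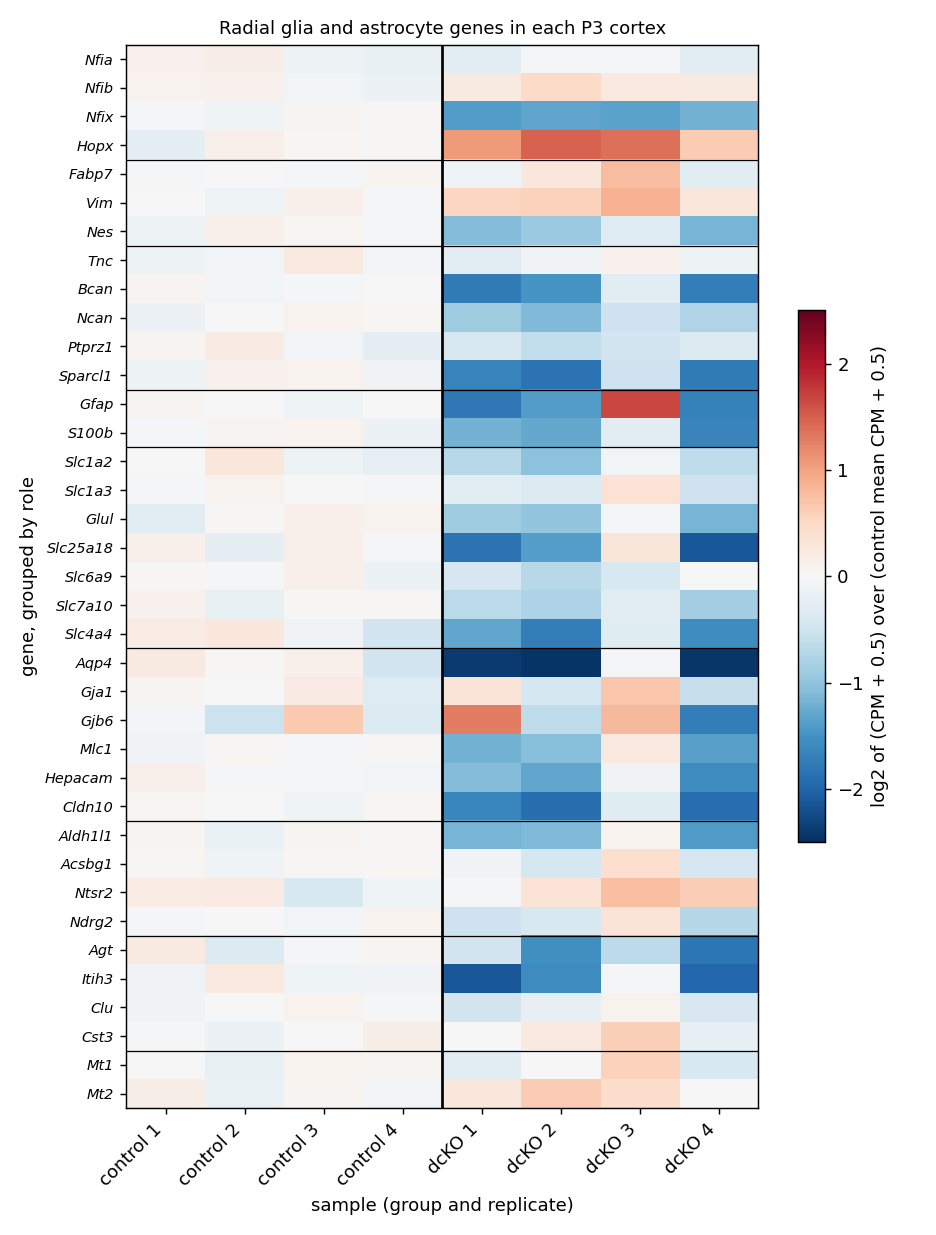
Each cell gives log2 of a gene's CPM (plus 0.5) over the control mean CPM (plus 0.5) for the 37 genes (vertical axis, lines between roles) in the 4 control and 4 dcKO_hGFAP-Cre (dcKO) samples (horizontal axis), with blue for lower and red for higher. Mutant replicates 1, 2 and 4 lie below every control in 29, 27 and 30 genes and replicate 3 in 12, while Nfix is blue and Hopx and Vim are red in all 4 mutants.

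The sequencing lanes hold both groups, so the comparison can be read within each. On lane 5, with replicates 1 and 2 of each group, 30 of the 37 genes were lower on average in the mutants, with a median log2 ratio of -0.69. On lane 7, with replicate 4 of each group, 31 were lower, with a median of -0.80. On lane 6, with replicate 3 of each group, 17 were lower and 20 higher, with a median of 0.06. The medians of all genes tested lay between -0.02 and 0.03 on the 3 lanes. Lanes 6 and 7 hold 1 sample of each group, so no test could be made within them. With all samples and the lane as a block, 18 of the 37 genes were lower and 3 higher, and Glul, Slc6a9, Aqp4, Hepacam, Aldh1l1 and Itih3 were those added to the 12 (adjusted p between 0.0052 and 0.0493, edgeR). The share of all genes called in that fit is not given here, so the gain cannot be called particular to these genes. Control replicate 3, on the same lane as mutant replicate 3, and control replicate 4, with the same Xist pattern, had summed levels of 8140 and 7840 CPM, within the range of the other controls at 7820 and 8190 CPM. The part of sex or lane in the values of mutant replicate 3 was not tested.

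Nuclear factor I proteins bind DNA as dimers and drive the switch of radial glia to gliogenesis, and the 3 family members on the list went different ways. Nfix (ENSMUSG00000001911, chr8:84699876-84800344 of mm10, minus strand) measured 1150, 1090, 1220 and 1200 CPM in control replicates 1 to 4 and 442, 468, 465 and 513 CPM in dcKO_hGFAP-Cre replicates 1 to 4. Every mutant was far below every control, replicate 3 included. Bulk counts do not tell which cells carried the RNA of Nfix, Nfib or Nfia, and most neuronal genes given below were lower as well. The part of neurons in these values was not tested. The log2 fold change of Nfix was -1.31 (SE, the standard error, 0.07, adjusted p = 4.1e-07, edgeR), the smallest adjusted p of the 37 genes. Nfib (chr4:82290173-82705750, minus strand) measured 306, 311, 275 and 259 CPM in controls and 338, 401, 339 and 336 CPM in mutants. The groups did not overlap, and the rise was small, with a log2 fold change of 0.30 (SE 0.09, adjusted p = 0.0171, edgeR). The edgeR call was lost without control replicate 3 (adjusted p = 0.0584), control replicate 4 (0.0654) or mutant replicate 2 (0.0745). Nfia, the member with the clearest known part in starting gliogenesis, measured 98.2, 102, 83.7 and 80.5 CPM in controls and 74.5, 88.1, 88.1 and 75.7 CPM in mutants. These ranges overlapped, and its log2 fold change of -0.16 did not pass the test (adjusted p = 0.223, edgeR).

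Hopx (ENSMUSG00000059325, chr5:77086988-77115121, minus strand) encodes a small homeodomain protein without DNA binding of its own, known as a marker of outer radial glia and of quiescent neural stem cells. It had the largest rise of the 37 genes. Its levels were 6.40, 8.33, 7.90 and 7.71 CPM in controls and 16.5, 22.1, 20.5 and 12 CPM in mutants. The lowest mutant was above the highest control, and the log2 fold change was 1.23 (SE 0.18, adjusted p = 0.000263, edgeR). An antisense gene, Hopxos, shares 27.2% of the exon bases of Hopx and had 34 counts over all samples against 2674 for Hopx.

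The filament and lipid-binding genes of radial glia also divided. Vim (vimentin, chr2:13573927-13582826, plus strand), the main intermediate filament of radial glia and immature astrocytes, measured 131, 121, 142 and 125 CPM in controls and 188, 194, 237 and 159 CPM in mutants. All mutants were above all controls, with a log2 fold change of 0.58 (SE 0.11, adjusted p = 0.0015, edgeR). Vimentin is also made by endothelial cells, pericytes and microglia. Nes (nestin, chr3:87971078-87980451, plus strand), the filament that forms copolymers with vimentin in neural progenitors, went the other way. It measured 74.8, 89.4, 84.6 and 79.2 CPM in controls and 38.3, 42.6, 65.6 and 36.2 CPM in mutants. Mutant replicate 3 was the highest mutant and still below every control, and the log2 fold change was -0.84 (SE 0.17, adjusted p = 0.00278, edgeR). Fabp7, the brain lipid-binding protein of radial glia, had the highest level of the 37 genes per kilobase of exon, with a control mean of 588 CPM per kb. In CPM it measured 717, 731, 721 and 769 in controls and 687, 889, 1260 and 605 in mutants. Mutant replicates 1 and 4 were below every control and replicates 2 and 3 above, and its log2 fold change of 0.23 did not pass the test (adjusted p = 0.411, edgeR).

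**Figure D2:**
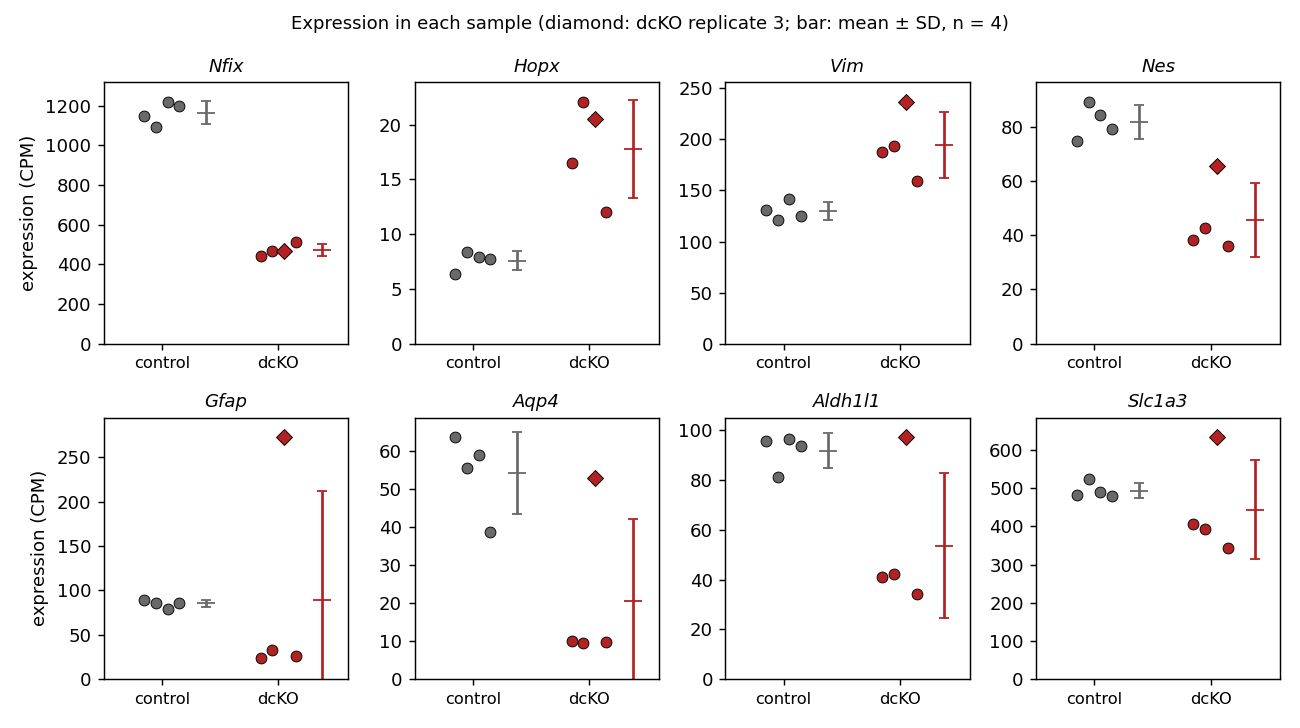
Expression in CPM (vertical axes, from 0) of 8 genes in each control (grey) and dcKO_hGFAP-Cre (red) sample, with bars for the mean ± SD of 4 samples, cut at 0 where they would pass below it. Replicate 3 of the mutants (diamond) lies with the other mutants for Nfix (465 against 442 to 513 CPM) and far above them for Gfap (273 against 24.2 to 32.2 CPM).

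The matrix genes and the matrix receptor were the role with most calls, 4 of 5, all lower (80%, beside 18.9% of all genes tested). Brevican and neurocan are chondroitin sulfate proteoglycans of the brain matrix. Ncan measured 858, 960, 1010 and 986 CPM in controls and 512, 444, 670 and 565 CPM in mutants. The groups were apart in every sample, and the log2 fold change was -0.80 (SE 0.11, adjusted p = 0.000192, edgeR). Bcan measured 255, 234, 240 and 247 CPM in controls and 72.7, 86.9, 204 and 73.7 CPM in mutants. Mutant replicate 3 was at 83.5% of the control mean and the other mutants between 29.8% and 35.6%. The log2 fold change of Bcan was -1.16 (adjusted p = 0.0363, edgeR) with all samples and -1.65 (adjusted p = 1.07e-07) without mutant replicate 3, and the call was lost when any sample other than mutant replicate 3 was left out, with adjusted p between 0.06 and 0.0885.

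Sparcl1 (hevin), a secreted protein of astrocytes that promotes synapse formation, fell most among the matrix genes. Its levels were 639, 751, 737 and 656 CPM in controls and 219, 194, 485 and 208 CPM in mutants. All mutants were below all controls, with a log2 fold change of -1.33 (SE 0.31, adjusted p = 0.0133, edgeR) and of -1.75 without mutant replicate 3. Ptprz1, a receptor tyrosine phosphatase that binds tenascin and pleiotrophin and is also made by oligodendrocyte precursors, measured 921, 1010, 833 and 756 CPM in controls and 669, 572, 627 and 693 CPM in mutants. Its log2 fold change was -0.46 (adjusted p = 0.00255, edgeR), and mutant replicate 3 lay among the other mutants. Tnc, the tenascin C of radial glia, measured 226, 238, 293 and 236 CPM in controls and 203, 233, 267 and 226 CPM in mutants. The ranges overlapped and the test was not passed (log2 fold change -0.09, adjusted p = 0.492, edgeR).

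Gfap (ENSMUSG00000020932, chr11:102887336-102900912, minus strand), the intermediate filament of astrocytes, had the largest ratio of mutant replicate 3 to the other mutants. It measured 89.5, 86.0, 79.3 and 86.2 CPM in controls and 24.2, 32.2, 273 and 26.2 CPM in mutants. Mutant replicate 3 stood at 321% of the control mean, while the other mutants stood between 28.3% and 37.8%. The group means, 85.2 ± 4.28 CPM (SD, n = 4) and 89.0 ± 123 CPM (SD, n = 4), therefore describe no single mutant. With all samples the log2 fold change was 0.06 (SE 0.90, adjusted p = 0.963, edgeR), and -1.63 (SE 0.11, adjusted p = 6.47e-07, edgeR) without mutant replicate 3. A human GFAP promoter drives Cre in both groups as given by the methods, and the counts are those of the mouse gene. S100b, a calcium-binding protein of astrocytes and of some oligodendrocyte precursors, was scarce, with between 17 and 87 counts per sample. It measured 2.62, 2.81, 2.89 and 2.36 CPM in controls and 0.898, 0.805, 2.12 and 0.513 CPM in mutants. All mutants were below all controls, with a log2 fold change of -1.29 (SE 0.35, adjusted p = 0.012, edgeR).

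The transporters and the enzyme that clear glutamate were lower in mutant replicates 1, 2 and 4. In replicate 3, Slc1a2 and Glul lay within the controls and Slc1a3 above every control. Slc1a2 (GLT-1), the main glutamate transporter of mature astrocytes, measured 317, 384, 289 and 273 CPM in controls and 196, 156, 301 and 202 CPM in mutants. Mutant replicate 3 lay within the controls. Its log2 fold change of -0.56 passed (SE 0.19, adjusted p = 0.0427, edgeR), but not when any other sample was left out, and it was -0.77 (adjusted p = 0.000754) without mutant replicate 3. Slc1a3 (GLAST), the glutamate transporter that radial glia already carry, measured 483, 523, 489 and 480 CPM in controls and 407, 392, 634 and 343 CPM in mutants. Replicate 3 was above every control and the other mutants below, and the test was passed only without replicate 3 (log2 fold change -0.38, adjusted p = 0.00323, edgeR, against -0.15 and 0.49 with all samples). Per sample, the ratio of Slc1a3 to Slc1a2 in CPM was between 1.36 and 1.76 in controls and between 1.69 and 2.51 in mutants, so the ranges overlapped.

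Glul, the glutamine synthetase that converts glutamate to glutamine, measured 243, 304, 325 and 313 CPM in controls and 160, 150, 290 and 132 CPM in mutants. Its log2 fold change of -0.69 missed the threshold with all samples (adjusted p = 0.0539, edgeR), passed with the lane as a block (adjusted p = 0.0052), and was -1.01 (adjusted p = 1.98e-05) without mutant replicate 3. Slc25a18, a mitochondrial glutamate carrier, measured 28.4, 21.7, 28.2 and 25.1 CPM in controls and 6.88, 9.66, 32.1 and 5.55 CPM in mutants. The other mutants were thus between 21.5% and 37.4% of the control mean and replicate 3 at 124%. Its log2 fold change was -0.93 (adjusted p = 0.24, edgeR) with all samples and -1.82 (adjusted p = 1.13e-05) without replicate 3.

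Slc7a10 (Asc-1), an exchanger of serine and other small neutral amino acids, fell in every mutant. It measured 14.4, 11.7, 13.5 and 13.6 CPM in controls and 8.17, 7.58, 11 and 7.09 CPM in mutants, with a log2 fold change of -0.65 (SE 0.15, adjusted p = 0.00467, edgeR). It shares 17.9% of its exon bases with Lrp3 on the other strand, which had 36859 counts over all samples against 2276 for Slc7a10. The strand setting of the counting is not given in the sources used here, so the counts of Slc7a10 are uncertain. Slc4a4, a sodium bicarbonate cotransporter, measured 87.7, 91.8, 72.0 and 55.0 CPM in controls and 30.7, 22.9, 62.1 and 25.7 CPM in mutants. Mutant replicate 3 lay above the lowest control, and the log2 fold change was -1.11 (SE 0.34, adjusted p = 0.0385, edgeR), or -1.54 without replicate 3. The call of Slc4a4 was lost without control replicates 1, 2 or 3, or without mutant replicates 1, 2 or 4 (adjusted p between 0.0724 and 0.0998). Slc6a9 (GlyT1), the glial glycine transporter, measured 19.3, 18.5, 20.5 and 16.9 CPM in controls and 14.0, 11.5, 14.1 and 18.8 CPM in mutants. Here replicate 4, not replicate 3, was the highest mutant, and the log2 fold change of -0.36 missed the threshold (adjusted p = 0.0602, edgeR, and 0.0478 with the lane as a block). Without mutant replicate 4 it was -0.50 (adjusted p = 0.00659, edgeR). Slc6a9 shares 27.8% of its exon bases with Ccdc24 on the other strand.

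Among the genes of endfeet, channels and junctions, 1 of 6 was lower with all samples, and 4 of 6 without mutant replicate 3. With all samples this was 16.7%, near the 18.9% of all genes tested. Aqp4, the water channel of the endfeet, measured 63.7, 55.5, 59.1 and 38.8 CPM in controls and 9.92, 9.49, 53.0 and 9.72 CPM in mutants. Mutant replicates 1, 2 and 4 stood between 17.5% and 18.3% of the control mean, and replicate 3 at 97.7%, within the controls. For Aqp4 the log2 fold change was -1.39 (SE 0.67, adjusted p = 0.148, edgeR) with all samples, -1.83 (adjusted p = 0.0493) with the lane as a block and -2.48 (SE 0.16, adjusted p = 6.86e-07) without replicate 3, the largest fall of the 37 genes in that fit. Mlc1 and Hepacam (GlialCAM) form a membrane complex at endfeet. Mlc1 measured 105, 113, 109 and 114 CPM in controls and 48.7, 52.8, 132 and 42.8 CPM in mutants. Hepacam measured 64.2, 57.4, 58.1 and 55.8 CPM in controls and 27.6, 23.7, 55.7 and 19.5 CPM in mutants. In replicate 3 Mlc1 was above every control and Hepacam just below the lowest one, and neither passed the test with all samples (adjusted p = 0.183 for Mlc1 and 0.0531 for Hepacam, edgeR), although Hepacam did with the lane as a block (0.0142). Without replicate 3 the log2 fold changes were -1.20 (adjusted p = 1.61e-06) for Mlc1 and -1.32 (adjusted p = 5.26e-06) for Hepacam in the same edgeR fit.

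Cldn10, a claudin of tight junctions, passed the test with all samples. It measured 7.09, 6.80, 6.34 and 7.12 CPM in controls and 1.88, 1.48, 5.42 and 1.45 CPM in mutants, every mutant below every control. Cldn10 had a log2 fold change of -1.41 (SE 0.39, adjusted p = 0.0177, edgeR), and -2.10 without replicate 3. The connexins of astrocyte gap junctions did not pass. Gja1 (connexin 43) measured 69.5, 66.8, 77.1 and 53.0 CPM in controls and 83.4, 48.7, 108 and 44.5 CPM in mutants. Mutant replicates 1 and 3 were above every control and replicates 2 and 4 below, with a log2 fold change of 0.10 (adjusted p = 0.823, edgeR). Gjb6 (connexin 30), an astrocyte gene that appears late, had the lowest level per kilobase in controls, 0.694 CPM per kb. It measured 1.75, 1.13, 3.19 and 1.35 CPM in controls and 5.26, 1.02, 3.62 and 0.211 CPM in mutants, where 0.211 CPM is 7 counts. This spread exceeded any difference between the groups (log2 fold change 0.41, SE 0.82, adjusted p = 0.729, edgeR).

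None of Aldh1l1, Acsbg1, Ntsr2 and Ndrg2, a group of 2 metabolic enzymes, a receptor and a member of the NDRG family, passed with all samples. Aldh1l1, the folate enzyme used as a general astrocyte marker, measured 95.9, 81.3, 96.4 and 93.9 CPM in controls and 41, 42.3, 97.3 and 34.1 CPM in mutants. Mutant replicates 1, 2 and 4 were between 37.2% and 46.1% of the control mean and replicate 3 at 106%. For Aldh1l1 the log2 fold change was -0.77 (adjusted p = 0.104, edgeR), -0.90 (adjusted p = 0.0217) with the lane as a block and -1.23 (adjusted p = 3.25e-06) without replicate 3. Ndrg2, an astrocyte gene whose biochemical function is not settled, measured 209, 212, 202 and 226 CPM in controls and 147, 160, 266 and 129 CPM in mutants. Acsbg1, an acyl-CoA synthetase, measured 65.2, 59.9, 64.6 and 65.2 CPM in controls and 59.6, 46.9, 85.3 and 47.7 CPM in mutants. Both had replicate 3 above every control and the other mutants below, and both passed only without it, with log2 fold changes of -0.55 (adjusted p = 0.000435) and -0.31 (adjusted p = 0.0255, edgeR). Ntsr2, the astrocytic neurotensin receptor, measured 5.66, 5.77, 3.65 and 4.55 CPM in controls and 4.75, 6.36, 8.67 and 7.79 CPM in mutants, and its log2 fold change of 0.50 did not pass (adjusted p = 0.0741, edgeR).

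Among the secreted proteins, Agt and Itih3 were scarce and low in most mutants. Agt, the angiotensinogen from which astrocytes supply brain angiotensin, measured 1.93, 1.13, 1.53 and 1.67 CPM in controls and 0.983, 0.212, 0.819 and 0.0906 CPM in mutants, from 3 to 24 counts in mutants and 23 to 48 in controls. Replicate 1, not replicate 3, was the highest mutant, and all mutants were below all controls. The log2 fold change of -1.60 (SE 0.51, adjusted p = 0.0301, edgeR) was the largest fall of the 37 genes with all samples, and the call was lost without control replicates 1, 3 or 4 or mutant replicate 2 (adjusted p between 0.0635 and 0.0717). Itih3, a heavy chain of the inter-alpha-trypsin inhibitors, which bind hyaluronan, measured 4.33, 5.62, 4.28 and 4.37 CPM in controls and 0.684, 1.23, 4.5 and 0.815 CPM in mutants. Its log2 fold change was -1.34 (adjusted p = 0.0846, edgeR) with all samples, -1.67 (adjusted p = 0.0296) with the lane as a block and -2.36 (adjusted p = 1.49e-05) without replicate 3.

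Clu and Cst3 are secreted proteins that other brain cells also make, Cst3 above all microglia. Clu (clusterin, apolipoprotein J) measured 117, 124, 132 and 122 CPM in controls and 90.0, 108, 131 and 93.3 CPM in mutants, and passed only without replicate 3 (log2 fold change -0.35, adjusted p = 0.00649, edgeR, against -0.23 and 0.113). Cst3 (cystatin C), second in level per kilobase at 248 CPM per kb in controls, measured 307, 283, 316 and 349 CPM in controls and 314, 371, 473 and 272 CPM in mutants. It passed in neither fit (log2 fold change 0.19, adjusted p = 0.336, edgeR). The metallothioneins, which bind zinc and copper, lie side by side on chromosome 8. Mt1 measured 31.2, 27.3, 33.4 and 32.9 CPM in controls and 25.4, 30.9, 46.5 and 23.8 CPM in mutants (log2 fold change 0.02, adjusted p = 0.94, edgeR). Mt2 measured 4.65, 3.65, 4.35 and 3.92 CPM in controls and 5.09, 6.69, 5.83 and 4.14 CPM in mutants (log2 fold change 0.39, adjusted p = 0.098, edgeR). Mutant replicates 1 to 3 exceeded every control for Mt2 and only replicate 3 did for Mt1. An antisense gene, Gm45774, shares 73.5% of the exon bases of Mt2, so the counts of Mt2 are uncertain.

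**Figure D3:**
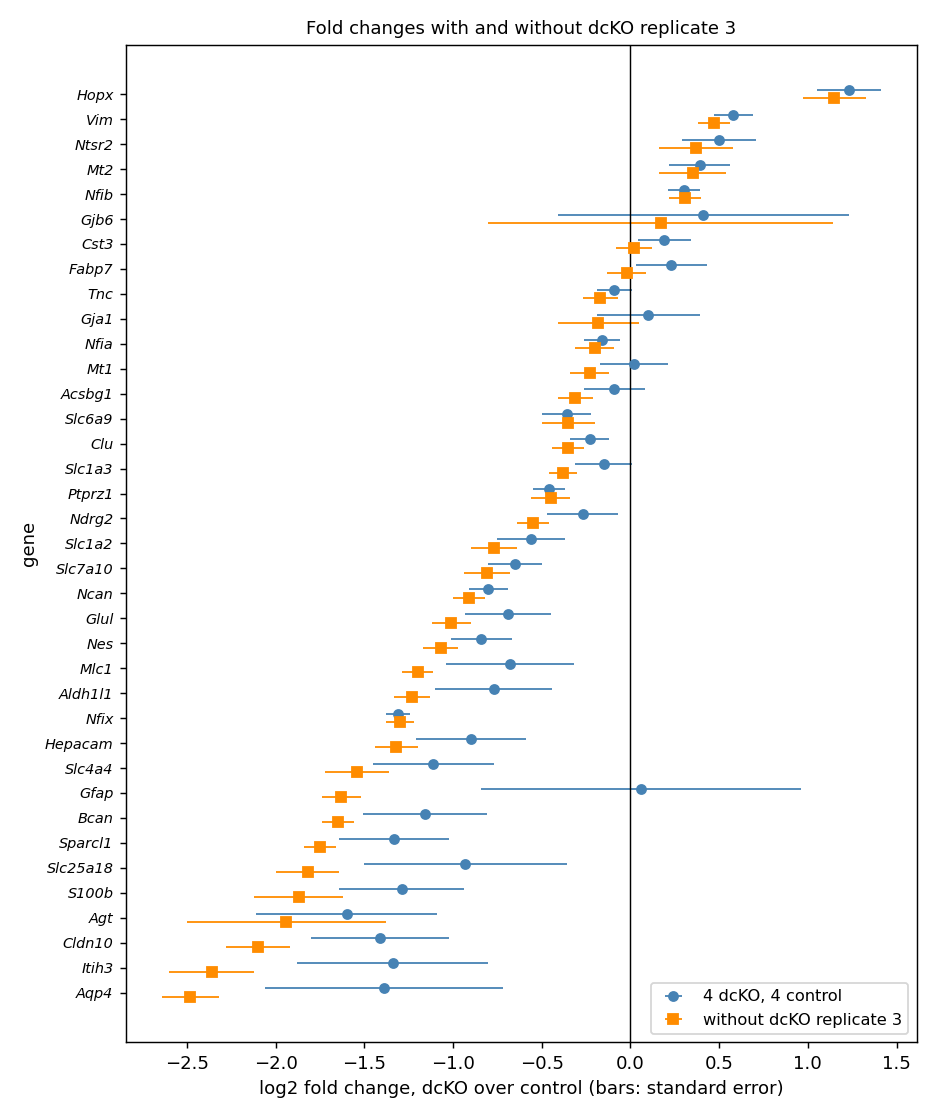
Log2 fold change of dcKO_hGFAP-Cre over control for each of the 37 genes (horizontal axis, bars for the standard error), with all 8 samples (circles) and without mutant replicate 3 (squares), sorted by the latter. Hopx, Vim, Nfib and Nfix hardly move between the 2 fits, while Gfap goes from 0.06 to -1.63 and Aqp4 from -1.39 to -2.48.

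Spread within groups followed the same picture. The coefficient of variation of the 37 genes had a median of 8.68% among controls and 32.5% among mutants, and the standard deviation of log2 CPM was larger among mutants in 33 of the 37 genes. These values were not computed over all genes tested, so the wider spread cannot be called particular to this list. Among the transcription factors, Nfix was at 39.9% of the control mean in mutant replicate 3 and between 37.9% and 44.0% in the other mutants, Nfib at 118% and between 117% and 139%, and Hopx at 270% and between 158% and 291%, so replicate 3 was like the others. Summed over their role, the matrix genes were at 74.6% of the control mean in replicate 3 and between 50.7% and 58.5% in the other mutants. Endfoot, channel and junction genes were at 120% in replicate 3 and between 39.5% and 59.1% in the other mutants. Glutamate, glycine, serine and bicarbonate handling was at 108% and between 59.2% and 66.4%. The metallothioneins were at 148% and between 79.2% and 106%.

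Other genes of the same cells, from lists that do not overlap the 37, were read in the same way. Of 24 further astrocyte genes, 4 were higher and 7 lower with all samples, and 4 and 14 without mutant replicate 3. With all samples these were 16.7% and 29.2% of the list, beside 18.6% and 18.9% of all genes tested. The largest falls were those of Kcnj10 (Kir4.1, the potassium channel of astrocytes, log2 fold change -1.75), Gpr37l1 (a receptor, -1.24) and Atp1b2 (a sodium pump subunit, -0.91), and the largest rises those of Gabrg1 (a GABA receptor subunit, 0.95), Gpc4 (a glypican that promotes synapses, 0.95) and Id4 (an inhibitor of bHLH factors, 0.78). Aldoc, an aldolase used as an astrocyte marker, measured 42, 43.5, 245 and 33.2 CPM in mutants against 164 to 215 CPM in controls, and passed only without replicate 3 (log2 fold change -2.24, adjusted p = 1.63e-07, edgeR). The summed level of these 24 genes was between 2130 and 2200 CPM in controls and 1380, 1350, 2510 and 1210 CPM in mutants.

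Of 12 further radial glia genes, 2 were higher and 2 lower with all samples, and 2 and 6 without mutant replicate 3. With all samples this was 16.7% in each direction, near the 18.6% and 18.9% of all genes tested. The higher ones were the transcription factors of progenitors Pax6 and Sox2. Pax6 measured 26.0, 18.4, 18.1 and 15.4 CPM in controls and 49.0, 52.4, 38.9 and 49.4 CPM in mutants, with a log2 fold change of 1.28 (adjusted p = 6.35e-05, edgeR). Sox2 lay between 53.1 and 61.3 CPM in controls and between 84.3 and 99.6 CPM in mutants (log2 fold change 0.71, adjusted p = 6.81e-05, edgeR). In both genes replicate 3 was the lowest mutant. The lower ones were the receptor Notch1 (-0.78) and Ddah1, an enzyme that degrades methylarginines (-0.26). Among 14 genes of the JAK-STAT and BMP pathways, 12 were tested and none was higher. With all samples 3 were lower (25%, beside 18.9% of all genes tested), and 5 without replicate 3. These 3 were the BMP receptor Bmpr1b (log2 fold change -1.04), the LIF receptor Lifr (-0.53) and the kinase Jak1 (-0.43), whereas the ligands Cntf and Lif were under the filter. Of 12 genes of reactive glia, 7 were tested and 1 passed (14.3%, beside 37.5% of all genes tested in either direction). This was Cd44, a hyaluronan receptor, which was lower (log2 fold change -1.12, adjusted p = 0.0213, edgeR). The summed level of the 12 reactive genes was between 83.7 and 97.5 CPM in controls and 73.5, 67.1, 89.7 and 79.1 CPM in mutant replicates 1 to 4. Thus only replicate 3 lay within the controls. Fkbp5 weighs most in this sum, with 46.6 to 55.0 CPM in controls and 44.8 to 47.4 CPM in mutants. Lcn2, Cxcl10, Steap4, Hspb1 and Aspg were under the filter.

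**Figure D4:**
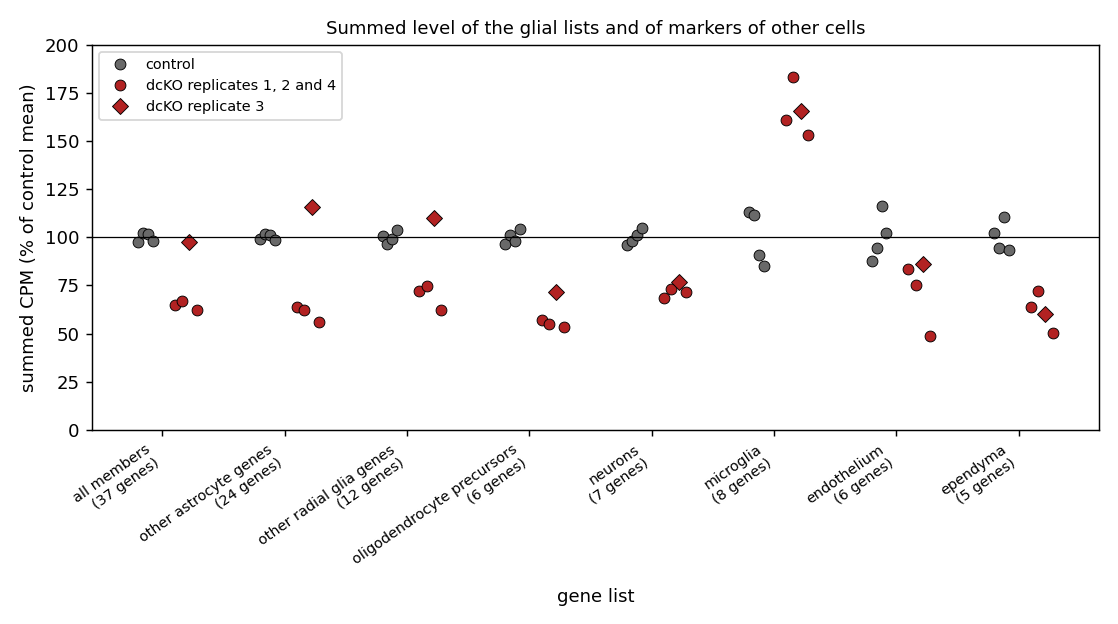
Summed CPM of each gene list as a percentage of the control mean (vertical axis) in every control (grey) and dcKO_hGFAP-Cre (red) sample, for the 37 genes, 2 further glial lists and markers of other cells (horizontal axis). Mutant replicate 3 (diamond) is at 97.8% for the 37 genes against 62.5% to 66.6% in the other mutants, and close to the other mutants for neurons and microglia. Abundant genes weigh most in each sum.

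Markers of other cells also moved between the groups, and their part in the results above was not tested. The counts below stand beside 18.6% of all genes tested called higher and 18.9% called lower. All 6 genes of oligodendrocyte precursors, cells that also make Ptprz1, Bcan and S100b, were lower. Their sum was between 422 and 456 CPM in controls and 250, 241, 312 and 234 CPM in mutants, so replicate 3 was the highest mutant and still at 71.3% of the control mean. Of 7 neuronal genes 6 were lower, and the sum of all 7 was 76.7% of the control mean in replicate 3 and between 68.5% and 72.8% in the other mutants. Abundant genes weigh most in this sum. Neurod6 and Rbfox3 fell most, to mutant means of 24.3% and 46.1% of the control mean (log2 fold changes -2.04 and -1.12). Of 8 microglial genes 6 were higher, led by Aif1 (log2 fold change 1.40), with sums at 166% in replicate 3 and between 153% and 183% in the others. Of 6 endothelial genes 3 were lower, led by Flt1 (-0.88), and of 5 genes of pericytes and fibroblasts none passed. Of 6 choroid plexus genes 2 were higher and none lower, and the others did not pass. Otx2, a homeodomain factor of the choroid plexus, measured 8.55, 13.6, 3.07 and 3.95 CPM in mutant replicates 1 to 4 and at most 0.276 CPM in controls (log2 fold change 5.15, adjusted p = 0.000317, edgeR). The other, the channel gene Clic6, measured 10.8, 18.7, 1.98 and 0.634 CPM in mutants and between 0.465 and 0.966 CPM in controls (3.59, adjusted p = 0.0428, edgeR), so replicate 4 lay among the controls. Ttr, the most abundant gene of that list, measured 584, 1130, 15.8 and 1.72 CPM in mutants and at most 9.37 CPM in controls and did not pass with all samples (adjusted p = 0.0568, edgeR) but did without replicate 3 (0.0466). Of 4 ependymal genes tested, 1 was higher and 2 were lower. Dynlrb2, a dynein light chain, was higher (log2 fold change 0.90, adjusted p = 0.0188, edgeR), Foxj1, the master factor of motile cilia, was lower (-0.92), and Ccdc153, also lower, was at 0 CPM in mutant replicates 1, 2 and 4. Of 7 striatal genes 4 were higher, and their sum was 302, 76.0, 367 and 166 CPM in mutants and between 56.1 and 110 CPM in controls. Replicate 3 had the highest striatal sum of the 8 samples and replicate 1 the next highest.

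The promoters of 5 of the genes are shown to place these results on sequence, with the start sites and bases of RefSeq on GRCm38.p6 (mm10). Of the 37 genes 33 had a window in the RefSeq table, and the 250 bases before the start were searched on both strands. Hopx was chosen as the largest rise that passed (chr5:77115124-77115373, minus strand, 1 of 2 starts), Agt as the largest fall that passed (chr8:124569707-124569956, minus strand), and Gfap as the gene in which mutant replicate 3 had the largest ratio to the other mutants (chr11:102897201-102897450, minus strand, inside the span of the GENCODE gene). Mt1 (chr8:94178839-94179088, plus strand) and Mt2 (chr8:94172368-94172617, plus strand) are the neighbouring pair. The sequences run 5′ to 3′ on the strand of the gene. Capitals mark a match on either strand to the STAT palindrome TTCNNNGAA (in Agt) or to TGCNCNC (in Hopx, Mt1 and Mt2). TGCNCNC is a loose form of the core of the metal response element.
Hopx: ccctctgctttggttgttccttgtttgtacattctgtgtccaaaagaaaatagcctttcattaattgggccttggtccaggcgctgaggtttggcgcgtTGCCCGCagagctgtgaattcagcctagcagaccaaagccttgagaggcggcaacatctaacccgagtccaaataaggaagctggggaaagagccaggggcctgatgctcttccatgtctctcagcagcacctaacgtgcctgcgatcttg
Agt: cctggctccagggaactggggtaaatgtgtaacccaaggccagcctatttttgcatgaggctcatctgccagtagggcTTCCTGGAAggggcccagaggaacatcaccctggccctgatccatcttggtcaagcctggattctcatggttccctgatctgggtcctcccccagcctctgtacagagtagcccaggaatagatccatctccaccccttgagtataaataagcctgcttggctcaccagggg
Gfap: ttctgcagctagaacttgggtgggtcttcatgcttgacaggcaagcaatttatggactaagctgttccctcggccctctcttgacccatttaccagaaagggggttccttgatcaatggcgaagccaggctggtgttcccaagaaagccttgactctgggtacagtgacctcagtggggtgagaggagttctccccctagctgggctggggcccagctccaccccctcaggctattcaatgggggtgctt
Mt1: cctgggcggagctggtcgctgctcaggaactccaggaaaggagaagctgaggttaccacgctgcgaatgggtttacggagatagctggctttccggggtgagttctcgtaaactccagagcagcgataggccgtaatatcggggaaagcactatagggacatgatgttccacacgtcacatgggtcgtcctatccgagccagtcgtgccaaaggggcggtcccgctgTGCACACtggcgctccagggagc
Mt2: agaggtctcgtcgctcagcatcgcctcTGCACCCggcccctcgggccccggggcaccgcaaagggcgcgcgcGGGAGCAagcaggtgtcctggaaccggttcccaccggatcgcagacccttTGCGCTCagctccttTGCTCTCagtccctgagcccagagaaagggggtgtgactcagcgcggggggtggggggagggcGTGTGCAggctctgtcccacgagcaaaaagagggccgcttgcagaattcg

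The STAT palindrome was in 4 of the 33 windows (12.1%), those of Slc1a3, Acsbg1, Ntsr2 and Agt, and in 7.14% of all 27025 windows. The metal response element core was in 15 of the 33 (45.5%) and in 43.8% of all windows, so it is common, and Mt2 held 5 matches and Mt1 1. The palindrome bound by nuclear factor I, TTGGC and GCCAA with 5 bases between them, was in none of the 33 windows and in 0.0407% of all. A match is a match of letters alone, and none of these motifs was tested for binding here. Of the 4 genes with the STAT palindrome, Agt was lower with all samples, Slc1a3 and Acsbg1 were lower only without mutant replicate 3, and Ntsr2 passed in neither fit.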

How the data were processed

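RNA of 4 control and 4 dcKO_hGFAP-Cre cortices was analysed, grouped by sample title. The authors prepared TruSeq v2 libraries, mapped reads to the mm10 genome, ran featureCounts and deposited its raw counts, 1 file a sample and not normalized. The aligner, annotation, strand setting and handling of multi-mapped reads are not given in the sources used here. Of 48709 Ensembl identifiers, 48349 were matched to GENCODE vM21 of the same build (GRCm38). Control libraries held 21126713 to 31805395 counts and mutant libraries 22002784 to 32110285. No pair of replicates agreed within sampling noise. Nothing states that the samples come from separate litters, so p-values measure the spread between these samples, which may be technical in part.

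The main test was edgeR (version 4.0.16, R version 4.3.3): TMM, its default filter (minimum count 10), robust quasi-likelihood F test, group only, Benjamini-Hochberg adjustment over 16525 genes, threshold 0.05. SEs come from the fold change and F. CPM uses TMM-scaled library sizes, and CPM per kb divides by merged exon length. The scripts were tested on simulated data. Alternatives were DESeq2 (version 1.42.0), limma-voom (limma version 3.58.1), DESeq2 size factors in edgeR, library totals, mitochondrial genes left out, no filter, at least 10 counts in every sample, a replicate or lane block, and each sample left out. The 37 genes, the other lists and the tests were chosen with earlier results of these data known. All 37 genes are named, and of each other list up to 3 called genes in each direction, not in every list, and markers at or near 0. Xist, Ddx3y, Aldoc, Ttr and Fkbp5, and Aif1, Flt1, Neurod6 and Rbfox3 as examples, were picked out after their values were seen. Promoters were taken from RefSeq for GRCm38.p6.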

Additional observations from a re-analysis of the deposited data

Results flagged for a closer look

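In 14 of 74 groups of 4 samples, that is each of the 37 genes in each genotype, 1 sample lay so far from the others that its gap to the nearest one, divided by the range of the group, exceeded Dixon's critical value for 4 samples. Chance flags about 1 in 20 groups, here about 3.7, and the genes are not independent of each other. In 9 of the 14 the sample was mutant replicate 3, in each case as the highest mutant. These were Bcan (204 CPM, others 72.7 to 86.9), Sparcl1 (485 CPM, others 194 to 219), Gfap (273 CPM, others 24.2 to 32.2), Slc25a18 (32.1 CPM, others 5.55 to 9.66), Aqp4 (53.0 CPM, others 9.49 to 9.92), Mlc1 (132 CPM, others 42.8 to 52.8), Cldn10 (5.42 CPM, others 1.45 to 1.88), Aldh1l1 (97.3 CPM, others 34.1 to 42.3) and Itih3 (4.5 CPM, others 0.684 to 1.23). The gap was widest for Aqp4, at 0.99 of the range, and for Gfap, at 0.968. One mutant value was that of replicate 2, with Nfib at 401 CPM against 336 to 339 in the other mutants.

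Among controls, replicate 2 was the lowest in Aldh1l1 (81.3 CPM, others 93.9 to 96.4) and in Acsbg1 (59.9 CPM, others 64.6 to 65.2) and the highest in Itih3 (5.62 CPM, others 4.28 to 4.37). Control replicate 3 was the highest in Tnc (293 CPM, others 226 to 238).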

How the results depend on the processing

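Of the 15 called genes, 9 kept their call under all 17 alternatives: Nfix, Hopx, Vim, Nes, Ncan, Ptprz1, Sparcl1, S100b and Slc7a10. None of the alternatives changed how reads of the bases shared by Slc7a10 and Lrp3 were counted. Nfib, Bcan, Slc1a2, Slc4a4, Cldn10 and Agt lost it under at least 1, and without the filter on low counts 8 genes were lower. The number of lower genes was 14 with DESeq2, 17 with limma-voom, 10 with library totals, 18 with the lane as a block (Glul, Slc6a9, Aqp4, Hepacam, Aldh1l1 and Itih3 added), and 12 with DESeq2 size factors, without mitochondrial genes or with a minimum of 10 counts in each sample. With 1 sample left out it lay between 8 and 24, and 24 came from leaving out mutant replicate 3. The cause of that difference was not tested. Shares of all genes called are given only for the main fit and for that without mutant replicate 3. The counts under the other alternatives thus have no background beside them. The number of higher genes was 3, but 5 with library totals, which also called Ntsr2 and Mt2, and between 2 and 4 with 1 sample left out. Library totals moved the median of all genes from 0.02 to 0.15. DESeq2 gave no adjusted p for Gfap and Aqp4. Without mutant replicate 3, an alternative added after seeing the data for the lists, 14 further astrocyte genes (from 7), 6 further radial glia genes (from 2) and 5 signalling genes (from 3) were lower, and 24 of the 37 genes had all mutants below all controls (from 11).

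Directions that turned belonged to genes that did not pass the main test. Gfap was at -0.79 with limma-voom, -0.91 with the replicate block and -0.90 with the lane block, and between -1.63 and 0.39 with 1 sample left out. Mt1 was at -0.03, -0.02 and -0.02, and between -0.23 and 0.15. Gjb6 was at -0.39 with limma-voom and between -0.23 and 0.82. Tnc and Acsbg1 were at 0.03 with library totals, which is below the median of all genes there, and Acsbg1 between -0.31 and 0.02 with 1 sample left out. Fabp7 lay between -0.02 and 0.38 and Gja1 between -0.18 and 0.28.

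The deviations of same-numbered control and mutant samples had correlations of 0.171, -0.0679, 0.213 and -0.0238. Those of differently numbered samples lay between -0.314 and 0.255. Same-numbered samples share a lane, but the labels do not say that they are related mice, so the numbers were not taken to pair them. With the replicate block 3 genes were higher and 15 lower, with a median of -0.59. Glul (adjusted p = 0.00749), Hepacam (0.0218), Aldh1l1 (0.0374) and Itih3 (0.0415) gained a call in edgeR with that block, and Slc1a2 lost its call (0.074). At the depths here Agt, S100b and Gjb6 rest on as few as 3, 17 and 7 counts in a sample.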
